A study of Mus musculus with 58 samples.

Results

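DNA methylation in 2 layers of the mouse cerebellum was compared with methylation in the thalamus, the hypothalamus and the substantia nigra. The cerebellar side held 10 samples, 4 labelled as Purkinje cells (PC) and 6 as granular cell layer (GCL). The other side held 16 samples, 5 of thalamus (TH), 5 of hypothalamus (HYP) and 6 of substantia nigra (SN). These 26 samples, chosen by their tissue labels, came from a series of 58 arrays on mouse brain, and each side was summarised as the unweighted mean of its region means. All 26 samples were genomic DNA of C57BL/6 mice labelled as healthy, with no treatment named. The sources used here state no age, sex, number of animals or method by which the layers were separated. Replicates carry codes such as F1 or M3, and since nothing says that they came from separate animals, p-values below measure the spread between these samples, which may be partly technical.

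Methylation of the cytosine in a CG dinucleotide (a CpG) is a covalent mark of DNA that, at promoters, often goes with low transcription. Levels differ between cell types and are kept through cell division, so a tissue sample shows the average over its cells. The granular layer is packed with granule cells, small excitatory neurons that bear NMDA receptors with the NR2C subunit and GABA-A receptors with the alpha 6 subunit. Purkinje cells are the large inhibitory output neurons of the cerebellar cortex and lie at the edge of that layer among Bergmann glia, a form of astrocyte. The thalamus relays signals to the cortex, the hypothalamus controls hormones and homeostasis, and the substantia nigra holds midbrain dopamine neurons. In samples of tissue, a change in the mix of cell types and a change of methylation within a cell type cannot be told apart.

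The arrays measured 382 CpGs in 381 genes, many of them genes of receptors and channels of the nervous system, as beta values (the methylated share of the signal, from 0 for none to 1 for full methylation). The sources used here do not give the position of each CpG in its gene. Mean beta per array ran from 0.249 to 0.289 in the cerebellar samples and from 0.267 to 0.288 in the other 16. Samples PC F2 and PC M3 stood apart at the low end of the scale: their first quartile of beta was 0.0759 and 0.0995, against 0.0555 and 0.0543 in PC F1 and PC F4 and 0.0491 to 0.0714 in the 16 samples of TH, HYP and SN. The main counts and most counts over gene lists are given with and without them.

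Sequence is shown for 4 genes on which the results turn: Grin2c, Gabra6 and Gfap, whose CpGs were among the most reduced in the cerebellar layers, and Tmhs, whose CpG was higher there in every sample. Each is the stretch of 250 bases before the annotated gene start from RefSeq (GRCm38.p6), 5′ to 3′ on the gene's strand, with every CG in capitals. Whether the assayed CpG lies in these stretches is not known, so they are context for the genes and not the measured sites. The stretches lie at chr11:115267244-115267493 (minus strand) for Grin2c, chr11:42321073-42321322 (minus strand) for Gabra6, chr11:102897201-102897450 (minus strand) for Gfap and chr17:28575469-28575718 (plus strand) for Tmhs, now named Lhfpl5.
Grin2c: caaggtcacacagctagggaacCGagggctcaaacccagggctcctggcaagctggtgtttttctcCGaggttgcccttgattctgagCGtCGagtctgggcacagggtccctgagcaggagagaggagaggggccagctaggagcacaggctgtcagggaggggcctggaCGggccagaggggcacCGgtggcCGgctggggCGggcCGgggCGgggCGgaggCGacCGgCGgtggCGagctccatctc
Gabra6: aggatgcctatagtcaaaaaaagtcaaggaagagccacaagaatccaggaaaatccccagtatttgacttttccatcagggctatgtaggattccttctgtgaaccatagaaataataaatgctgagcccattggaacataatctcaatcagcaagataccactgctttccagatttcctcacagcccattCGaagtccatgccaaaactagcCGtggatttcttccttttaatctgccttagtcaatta
Gfap: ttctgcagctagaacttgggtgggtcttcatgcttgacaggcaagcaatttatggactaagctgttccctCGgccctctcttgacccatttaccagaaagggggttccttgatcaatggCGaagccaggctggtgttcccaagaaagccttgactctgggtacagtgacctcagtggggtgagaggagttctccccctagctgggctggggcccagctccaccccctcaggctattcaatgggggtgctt
Tmhs: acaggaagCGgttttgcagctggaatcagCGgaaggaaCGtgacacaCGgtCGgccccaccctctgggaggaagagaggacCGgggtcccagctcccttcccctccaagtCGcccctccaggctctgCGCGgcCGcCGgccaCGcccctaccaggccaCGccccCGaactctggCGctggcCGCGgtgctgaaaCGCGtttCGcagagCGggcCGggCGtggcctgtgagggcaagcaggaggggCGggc
The dinucleotide CG reads the same on both strands and occurred 15 times before Grin2c, 2 times before Gabra6, 2 times before Gfap and 24 times before Tmhs. Of all 32851 such stretches in the RefSeq table, 92.1% held at least 1 CG, with a median of 6. Promoter CG content was not compared between called and uncalled CpGs: 230 of the 381 genes matched exactly 1 promoter, under the share of 80% set for such a check, which is therefore void.

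The cerebellar layers differed from TH, HYP and SN mainly by CpGs that were clearly less methylated. With limma on log2(beta/(1 − beta)) and Benjamini-Hochberg adjustment over all 382 CpGs, 143 CpGs (37.4%) passed an adjusted p of 0.05. Of these, 64 (16.8%) were lower in the cerebellar layers and 79 (20.7%) higher. The median absolute beta difference was 0.111 among the lower calls and 0.0164 among the higher ones. At a beta difference of at least 0.1, 38 calls were left (9.95%), of which 33 (8.64%) were lower and 5 (1.31%) higher. At 0.2 or more there were 20 (5.24%), 19 of them lower (4.97%) and 1 higher (0.262%).

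**Figure D1:**
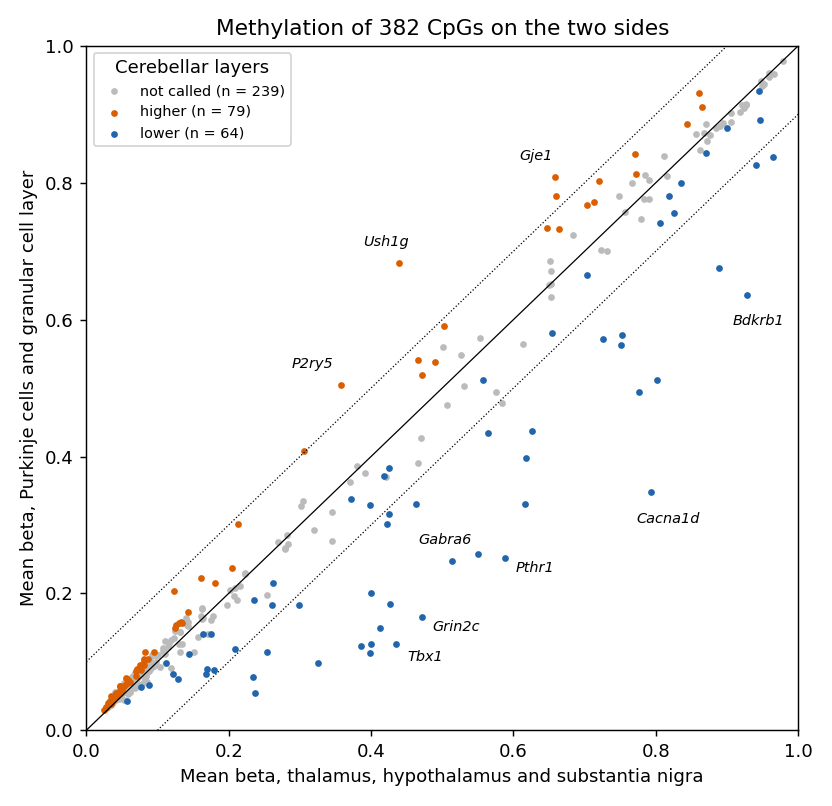
Mean beta of each of the 382 CpGs in the cerebellar layers (vertical axis) against TH, HYP and SN (horizontal axis), both as unweighted means of region means, with the line of equality and dotted lines at a difference of 0.1. The 33 lower calls past the dotted line reach down to Cacna1d, while most of the 79 higher calls lie close to the line of equality at low beta.

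Samples of the sides did not overlap at 37 CpGs (9.69%), lower in all cerebellar samples at 32 (8.38%) and higher at 5 (1.31%), the last being Chrna10, F2rl2, Ptger2, Tmhs and Ush1g. Each layer was also tested against each region. The same sign was called in all 6 pairs at 43 CpGs (11.3%), 39 lower (10.2%) and 4 higher (1.05%), the latter Chrna10, Id1, Tmhs and Ush1g. Of the 64 lower calls, 61 had a lower mean log2 level in all 6 pairs, and of the 79 higher calls, 46 had a higher one.

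Cacna1d, which encodes the pore of the Cav1.3 L-type calcium channel, had the widest difference of all 382 CpGs. In the 10 cerebellar samples its beta ran from 0.254 through a median of 0.317 to 0.521, and in the 16 others from 0.694 through 0.799 to 0.845. The highest cerebellar value was PC F2 and the lowest of the other side was HYP F4, and the sides did not overlap. Mean beta was 0.375 ± 0.113 (SD, n = 4) in PC and 0.320 ± 0.0550 (SD, n = 6) in GCL. It was 0.806 ± 0.0277 (SD, n = 5) in TH, 0.773 ± 0.0543 (SD, n = 5) in HYP and 0.801 ± 0.0194 (SD, n = 6) in SN. The log2 difference was −2.89 ± 0.17 (SE; limma adjusted p = 1.94e-19). Another channel gene, Kcnip1, which encodes a partner protein of Kv4 potassium channels, was at 0.0337 to 0.0900 in the cerebellar samples and 0.184 to 0.292 in the others (log2 difference −2.49, limma adjusted p = 1.02e-18). Kcnd2, a gene for such a Kv4 channel, fell by a smaller amount, with a mean of 0.111 against 0.145 (limma adjusted p = 0.00155). Of the 8 ion channel CpGs, these 3 were lower, also without PC F2 and PC M3, 1 was higher and 4 were not called. Over the array, 16.8% of CpGs were lower and 20.7% higher.

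Both NMDA and GABA receptor genes of granule cells were strongly reduced. Grin2c, the gene of NR2C, ran from 0.110 through 0.144 to 0.250 in the cerebellar samples and from 0.351 through 0.478 to 0.618 in the others. The high end of the cerebellar range came from PC F2 (0.249) and PC M3 (0.250), and the low end of the other side came from TH, which averaged 0.393 ± 0.0293 (SD, n = 5). The log2 difference was −2.24 ± 0.15 (SE; limma adjusted p = 2.80e-17). Gabra6, the alpha 6 subunit gene, ran from 0.213 through 0.244 to 0.349 on the cerebellar side and from 0.432 through 0.552 to 0.632 on the other. The layers had similar means at Gabra6, 0.278 ± 0.0485 (SD, n = 4) in PC and 0.237 ± 0.0179 (SD, n = 6) in GCL. Its log2 difference between the sides was −1.84 ± 0.12 (SE; limma adjusted p = 1.64e-17). Reln, the gene of the secreted guidance protein reelin, which granule cells also make, was lower by a small step, 0.140 against 0.164 (limma adjusted p = 0.0333). That call was lost in 12 of 44 alternative settings, quantile normalization among them, and the Reln difference was −0.0370 within F codes and 0.00904 within M codes. Within M codes the PC mean was PC M3 alone, which had a raised first quartile of beta (0.0995). As reported, all 3 granule cell genes on the array were called lower, beside 16.8% of all CpGs.

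Most other CpGs of these receptor families were not called or differed by small amounts. Their counts are read beside 20.7% of CpGs higher and 16.8% lower over the array. Among 18 ionotropic glutamate receptor CpGs, 3 were higher, 2 lower and 13 not called (0 higher and 3 lower without PC F2 and PC M3), and the higher Grik5 and Gria2 had means of at most 0.0454 on either side. The family's median log2 difference was 0.12, the same as the median of 0.12 over all 382 CpGs. Among 15 GABA-A subunit CpGs, 7 were higher and 2 lower, the latter Gabra6 and Gabrp, the pi subunit gene, at 0.563 against 0.751. The 7 higher calls were small, the widest being Gabra2 at 0.237 against 0.204. Without PC F2 and PC M3 the same family gave 1 higher and 3 lower calls, and with quantile normalization 4 higher and 3 lower. Of 7 metabotropic glutamate receptor CpGs, Grm2 (0.223 against 0.161) and Grm7 (0.538 against 0.490) were higher and 4 were not called, and without PC F2 and PC M3 the higher count was 2 as well. Gabrr1, a rho subunit gene, was higher, 0.803 against 0.720, and SN M3 alone was as low as 0.423.

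**Figure D2:**
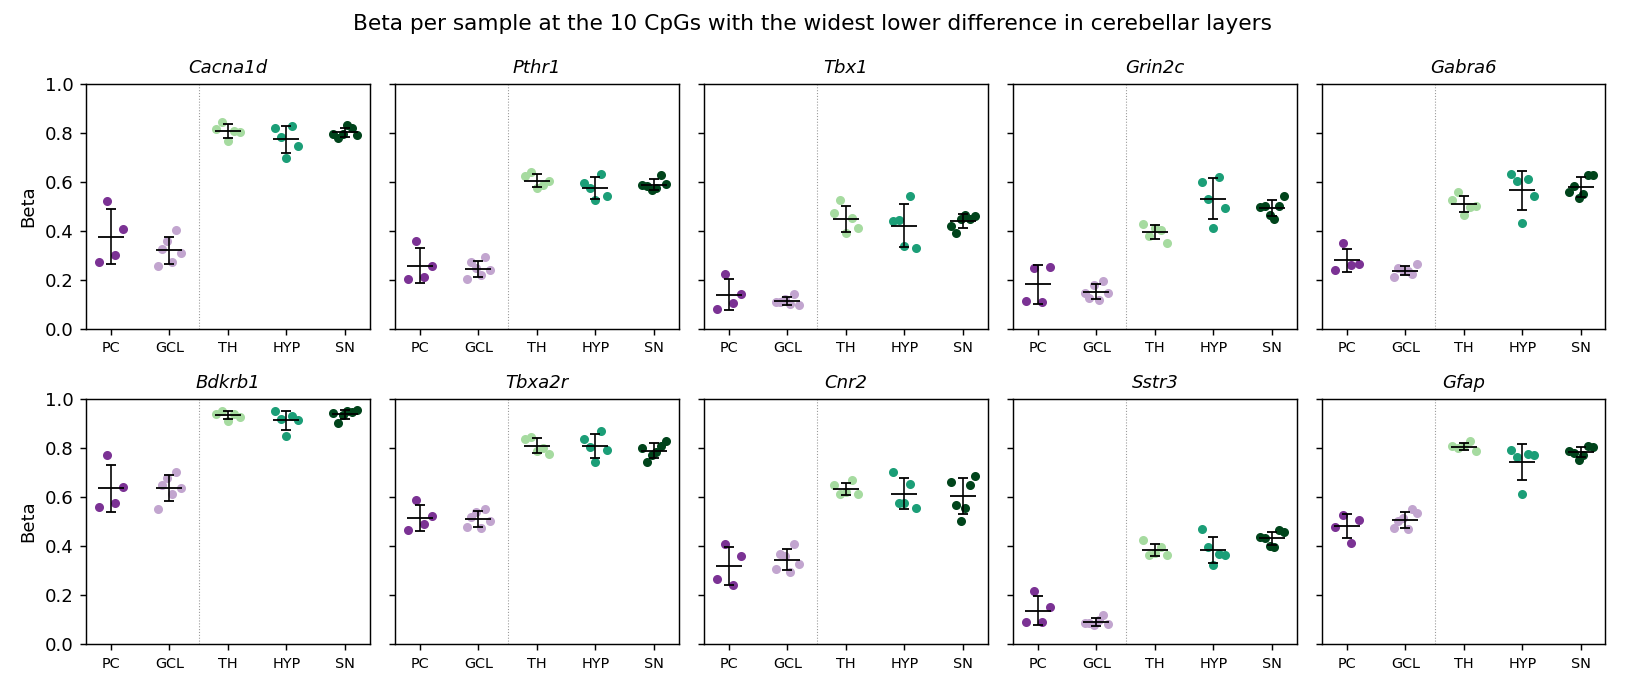
Beta of every sample (points) with the mean and SD of each region (black) at the 10 CpGs with the widest lower difference, by region: Purkinje cells (PC, n = 4), granular cell layer (GCL, n = 6), thalamus (TH, n = 5), hypothalamus (HYP, n = 5) and substantia nigra (SN, n = 6). In each panel all 10 cerebellar samples lie below all 16 others.

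Several genes of peptide and hormone receptors were strongly reduced. Pthr1 (now Pth1r), the parathyroid hormone receptor, ran from 0.201 through 0.243 to 0.358 in the cerebellar samples and from 0.523 through 0.585 to 0.638 in the others, with a log2 difference of −2.12 ± 0.13 (SE; limma adjusted p = 1.30e-18). Of the 14 class B hormone receptor CpGs, the family of Pthr1, 5 were lower, 1 was higher and 8 were not called, beside 16.8% lower and 20.7% higher over the array. The other lower members were Calcr, the calcitonin receptor (0.0976 against 0.326), Gcgr, the glucagon receptor (0.438 against 0.626), Glp1r (0.182 against 0.298) and Glp2r (0.891 against 0.946), receptors of glucagon-like peptides. The 5 lower calls of this family were 5 with quantile normalization, with centring and without PC F2 and PC M3 as well. The family's median log2 difference was −0.13, beside 0.12 over all CpGs.

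Both bradykinin receptor genes were lower. Bdkrb1 was nearly fully methylated outside the cerebellum, from 0.850 through 0.936 to 0.953, and ran from 0.549 through 0.639 to 0.769 inside it. The gap between the highest cerebellar sample, PC F2, and the lowest other sample, HYP F4, was small beside the mean difference, and the log2 difference was −2.92 ± 0.18 (SE; limma adjusted p = 1.30e-18). Bdkrb2 had means of 0.20 and 0.40 (limma adjusted p = 2.14e-15). The somatostatin receptor genes Sstr3 (0.113 against 0.399) and Sstr1 (0.123 against 0.387) were lower, as were Mtnr1b, a melatonin receptor (0.126 against 0.401), and Nmur2, a neuromedin U receptor (0.149 against 0.412). Npy6r, a neuropeptide Y receptor gene (0.184 against 0.427), and Ednrb, the endothelin B receptor (0.0782 against 0.235), followed the same pattern. All 6 of these CpGs had no overlap between the sides and were called in all 6 region pairs. Of 8 somatostatin and galanin receptor CpGs, 2 (Sstr3 and Sstr1) were lower, 1 higher and 5 not called. A list of 43 CpGs of other neuropeptide receptors gave 10 lower, 4 higher and 29 not called. Bdkrb1, Bdkrb2, Nmur2, Npy6r and Ednrb were among these 10. Both lists are again read beside 16.8% lower and 20.7% higher over the array. Without PC F2 and PC M3 the list of 43 gave 13 lower and 2 higher, and the list of 8 gave 3 lower and 0 higher.

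Wide lower calls were also found at Tbxa2r, Cnr2, Gfap, Tbx1 and Sorbs3. Sorbs3 was in no list, and the lists of the others had no shared direction. Of 10 prostanoid and leukotriene receptor CpGs 3 were lower and 3 higher, and of 10 lipid and cannabinoid receptor CpGs 2 were lower and 3 higher. Of 4 patterning gene CpGs 1 was lower and of 2 astrocyte CpGs 1 was lower, beside 16.8% lower and 20.7% higher over the array. Tbxa2r, the thromboxane receptor, ran from 0.464 through 0.509 to 0.586 in the cerebellar samples and from 0.741 through 0.799 to 0.871 in the others. Cnr2, the cannabinoid receptor known best from immune cells, had means of 0.330 and 0.616. Gfap, the intermediate filament gene of astrocytes, ran from 0.412 through 0.504 to 0.549 against 0.612 through 0.788 to 0.827 (log2 difference −1.86 ± 0.16 SE, limma adjusted p = 8.93e-14). Tbx1, a T-box transcription factor gene, ran from 0.0818 through 0.109 to 0.225 against 0.330 through 0.446 to 0.542 (log2 difference −2.49 ± 0.17 SE, limma adjusted p = 3.27e-17). Sorbs3, which encodes the adaptor protein vinexin, had means of 0.247 and 0.514. At each of these 5 CpGs every cerebellar sample was below every other sample. Slc1a3, the other astrocyte gene on the array, was not called, 0.230 against 0.223 (limma adjusted p = 0.647).

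Further lower calls by at least 0.1 included hormone genes and purinergic receptors. Lep, the gene of leptin, had means of 0.838 and 0.964. Lhb, a subunit of luteinizing hormone (0.578 against 0.753), and its receptor gene Lhcgr (0.398 against 0.618) were both lower. Of 13 CpGs with purinergic P2 receptor symbols, 4 were lower, among them P2rx1 (0.571 against 0.726) and P2rx6 (0.114 against 0.254), 1 was higher and 8 were not called, beside 16.8% lower and 20.7% higher over the array. The counts were the same without PC F2 and PC M3, but 4 were higher and 3 lower with quantile normalization. As reported, the 1 higher call was P2ry5, a lysophosphatidic acid receptor gene placed in this list by its array symbol. It was counted among the higher calls of the lipid and cannabinoid list as well. Gm98 (now Myrf), a transcription factor gene of oligodendrocytes, had means of 0.331 and 0.463. Of the 7 oligodendrocyte CpGs, Gm98 and Mag were lower, Gal3st1 and Cnp were higher and 3 were not called, so the list had no shared direction. The Cnp call was lost without PC F2 and PC M3, and the Mag call turned to the other sign with quantile normalization. Just inside the limit of 0.1 lay Glra2 with a difference of −0.108, and Edg3, just outside, had −0.0910. The Glra2 call was lost in 22 of 43 alternative settings.

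The CpGs that were higher in the cerebellar layers by at least 0.1 were few. Ush1g, which encodes the scaffold protein SANS of the Usher complex, ran from 0.616 through 0.688 to 0.716 in the cerebellar samples and from 0.307 through 0.450 to 0.514 in the others. HYP was lowest, at 0.376 ± 0.0409 (SD, n = 5), and the log2 difference was 1.47 ± 0.13 (SE; limma adjusted p = 3.17e-14). Ush1c, the gene of harmonin, another scaffold of that complex, had the opposite sign, 0.675 against 0.889 (limma adjusted p = 1.24e-15). Tmhs, a gene needed for mechanotransduction in hair cells, ran from 0.748 through 0.785 to 0.816 against 0.601 through 0.655 to 0.730 (limma adjusted p = 4.74e-10). The nicotinic receptor genes Chrna9 and Chrna10, whose subunits join in hair cell receptors, also went opposite ways: Chrna9 was lower, 0.827 against 0.940, and Chrna10 higher, 0.408 against 0.306 (limma adjusted p = 4.91e-15 and 8.04e-08).

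Gje1, a symbol that has been used for more than 1 connexin gene, so that the gene meant on the array is uncertain, averaged 0.808 against 0.658 with overlapping samples (limma adjusted p = 3.72e-06). P2ry5 (now Lpar6), a lysophosphatidic acid receptor gene, averaged 0.504 against 0.358, and HYP reached 0.517 (limma adjusted p = 2.66e-06). Below 0.1, Ptger2, a prostaglandin E2 receptor gene (0.302 against 0.213), Id1, an inhibitor of differentiation factors (0.204 against 0.124), and Dld, the dihydrolipoamide dehydrogenase gene (0.733 against 0.647), were among the 10 widest higher calls. F2rl2, a protease-activated receptor gene, was higher, 0.931 against 0.861, while F2r, the thrombin receptor gene, was lower, 0.301 against 0.423. The F2r call was lost with quantile normalization (limma adjusted p = 0.0765). Of the 4 histamine receptor CpGs, Hrh1 (0.591 against 0.502), Hrh4 (0.842 against 0.771) and Hrh2 (0.0912 against 0.0750) were higher and none was lower. Over the array, 20.7% of CpGs were higher and 16.8% lower. Without PC F2 and PC M3, 2 of the 4 histamine receptor CpGs were called. The Hrh2 call was lost in 9 of 44 alternative settings.

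**Figure D3:**
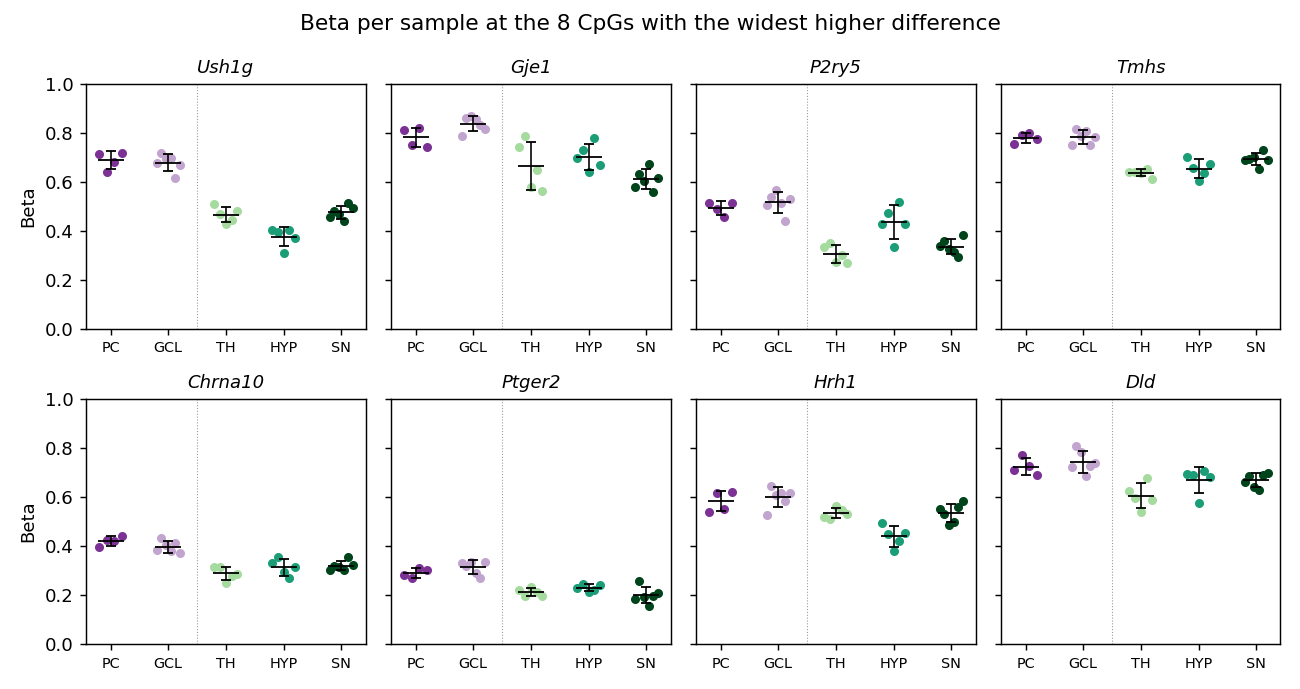
Beta of every sample (points) with the mean and SD of each region (black) at the 8 CpGs with the widest higher difference in the cerebellar layers, in the same order of regions (PC n = 4, GCL n = 6, TH n = 5, HYP n = 5, SN n = 6). The samples of the sides are apart at Ush1g, Tmhs, Chrna10 and Ptger2 and overlap at Gje1 and P2ry5.

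The other receptor lists are read beside 20.7% of CpGs higher and 16.8% lower over the array. Of 10 serotonin receptor CpGs 2 were higher and 8 not called, of 5 dopamine receptor CpGs 1 was higher, of 5 muscarinic receptor CpGs 1 was lower, of 9 adrenergic receptor CpGs 2 were higher and 1 lower, and of 3 adenosine receptor CpGs 1, Adora1, was higher. These calls were small and unstable. Without PC F2 and PC M3 no higher call was left in these 5 lists, and there was 1 lower call each among the serotonin, dopamine and adrenergic receptors and none among the muscarinic ones. Over the alternative settings the call was lost for Adora1 in 28 of 43, for Drd1a, a dopamine receptor gene, in 25 of 43, for Htr1f, a serotonin receptor gene, in 26 of 44, for Adrb3, an adrenergic receptor gene, in 26 of 44 and for Chrm4, a muscarinic receptor gene, in 16 of 44. Adora1 and Adrb3 each turned sign in 1 more. Without the same samples, the prostanoid and leukotriene list had 2 higher and 3 lower calls, and the lipid and cannabinoid list 2 of each. The 4 protease-activated receptor CpGs gave 1 call of each sign with and without them. None of 3 orphan receptor CpGs and none of 5 Alzheimer and Parkinson gene CpGs passed limma's adjusted threshold. The latter list gave 2 higher calls with quantile normalization and 3 with centring. The 3 rho and GABA-B receptor CpGs gave 1 higher call (Gabrr1) and the 4 patterning gene CpGs 1 lower call (Tbx1), and the 1 chemoattractant receptor CpG was not called. Gap43, a gene of growing neurons, and Ifng, an immune gene, were not called either.

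How the calls were spread over levels of methylation was examined next. CpGs were sorted by their mean in 6 other regions of healthy C57BL/6 brain on the same arrays: basolateral amygdala (BLA), CA3 and dentate gyrus (DG) of the hippocampus, caudate-putamen (CPU), frontal cortex (FC_WT) and globus pallidus (GP). Of 243 CpGs with a mean under 0.2 there, 59 were higher and 16 lower in the cerebellar layers; this class held 243 of all 382 CpGs and 59 of the 79 higher calls. Of 102 CpGs between 0.2 and 0.8, 18 were higher and 38 lower, and of 37 above 0.8, 2 were higher and 10 lower. No higher call in the lowest class reached a difference of 0.1. Without PC F2 and PC M3, the lowest class held 6 higher and 26 lower calls. The middle class then held 17 higher and 38 lower ones. With quantile normalization the classes, from low to high, held 52, 44 and 9 higher calls. With GCL as the only cerebellar layer the lowest class held 5 higher calls, and without SN it held 8. The part of the raised first quartiles of PC F2 and PC M3 in the small higher calls was not tested further.

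Counts of higher calls therefore varied with the samples used, while the wide lower calls varied less. In all, 79 higher and 64 lower calls became 25 and 72 without PC F2 and PC M3, 30 and 66 without PC M3 alone and 43 and 59 without PC F2 alone. The higher count was also 46 without HYP F1, 48 without HYP M1, 50 without TH F2 and 51 without GCL M3. With quantile normalization 105 calls were higher and 56 lower (65.2% higher), and after centring each array on its median 138 and 55 (71.5%), beside 55.2% higher as reported. Of the 33 lower calls of at least 0.1, 31 were called lower in every alternative that included them, the exceptions being F2r and Glra2, and so were 5 of 5 higher ones.

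**Figure D4:**
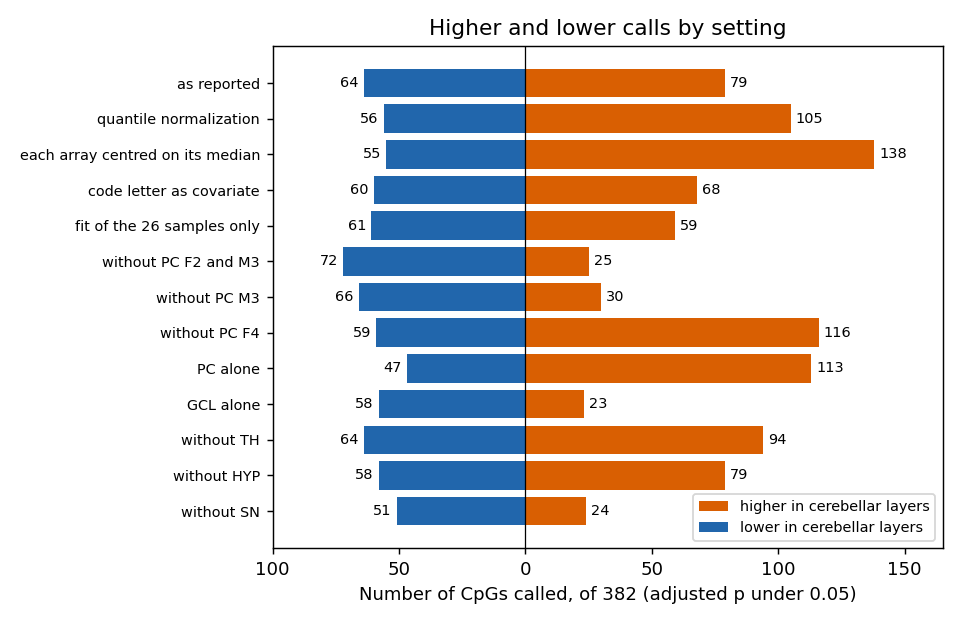
Number of CpGs called higher (right, orange) and lower (left, blue) in the cerebellar layers under selected settings (rows), at a limma adjusted p under 0.05. The lower count lies between 47 and 72 in these settings, while the higher count ranges from 23 with GCL alone to 138 after centring each array.

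Each layer against each region gave unequal counts. PC differed from TH at 66 CpGs (17.3%), from HYP at 90 (23.6%) and from SN at 205 (53.7%), and GCL differed from TH at 80 (20.9%), from HYP at 66 (17.3%) and from SN at 81 (21.2%). Lower calls were 41 (10.7%), 41 (10.7%) and 59 (15.4%) for PC and 57 (14.9%), 51 (13.4%) and 61 (16.0%) for GCL, against TH, HYP and SN in that order. Higher calls were 25 (6.54%), 49 (12.8%) and 146 (38.2%) for PC and 23 (6.02%), 15 (3.93%) and 20 (5.24%) for GCL. The number of higher calls thus varied far more over the pairs than that of lower calls, and PC against SN stood apart. PC included PC F2 and PC M3, with first quartiles of beta of 0.0759 and 0.0995, beside 0.0523 to 0.0562 in SN. Their part in the count of PC against SN was not tested, and the pair counts without them are not given here.

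Few CpGs passed the test between regions of the same side. PC and GCL differed at 0 CpGs by limma's adjusted p, with 95 of 382 (24.9%) at an unadjusted p under 0.05. This count was 75 without PC F4, 49 without PC F1, 31 on untransformed beta and 53 with beta limited to 0.05 to 0.95. Foxp2, a transcription factor gene of Purkinje cells, averaged 0.0987 ± 0.0257 (SD, n = 4) in PC and 0.0816 ± 0.0112 (SD, n = 6) in GCL. It was not called between PC and GCL (limma adjusted p = 0.259), so the label of Purkinje cells could not be checked by this gene. Among TH, HYP and SN, 2 CpGs (0.524%) differed by limma's F-test, and 53 had an unadjusted p under 0.05. Tomt, a methyltransferase gene of hearing, averaged 0.325 in TH, 0.417 in HYP and 0.294 in SN (adjusted p = 0.00449), and Hrh4 averaged 0.710, 0.829 and 0.774 (adjusted p = 0.0330). Thus the Hrh4 level of HYP lay close to the cerebellar mean of 0.842. No CpG of the hypothalamic or thalamic marker lists was on the array, and Drd2, the only gene of the dopamine neuron list, was not called.

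The 6 other regions served to place the differences. Against their mean, the cerebellar layers were called at 146 CpGs (38.2%), 92 higher (24.1%) and 54 lower (14.1%), and TH, HYP and SN at 65 (17.0%), 59 higher (15.4%) and 6 lower (1.57%). The counts of the cerebellar layers include PC F2 and PC M3. Without these samples the higher calls of the main comparison went from 79 to 25. Whether the 6 regions lay nearer to either side was tested against the midpoint of the sides on the log2 scale. Of the 143 calls, 68 lay off the midpoint, 60 nearer to TH, HYP and SN and 8 nearer to the cerebellar layers, beside 118 CpGs (30.9%) off it over the whole array. A fit with the replicate code as a block that also left out FC_WT and DG F7 to F9, so that 5 of the 6 regions remained, gave 29 calls off the midpoint. Of the 60 calls nearer to TH, HYP and SN, 28 were lower and 32 higher in the cerebellar layers. The 8 nearer to the cerebellar layers were all lower. This split without PC F2 and PC M3 is not given here.

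At the 19 CpGs lower by at least 0.2, the mean of the 6 regions lay between the sides in every case, nearer to TH, HYP and SN at 12 and not called at 7. Bdkrb1 and Mtnr1b were the clearest cases of a level set apart in the cerebellar layers. The 6 regions averaged 0.920 at Bdkrb1, with each region between 0.899 and 0.935, beside 0.927 in TH, HYP and SN and 0.637 in the cerebellar layers. Mtnr1b averaged 0.395 there, beside 0.401 and 0.126. Neither was called between the 6 regions and TH, HYP and SN (limma adjusted p = 0.456 and 0.851). Cacna1d took a graded form: DG (0.583) and CA3 (0.573) lay below BLA (0.766), CPU (0.776) and FC_WT (0.788). At Gfap and Tbxa2r, DG averaged 0.469 and 0.463 and so lay below the cerebellar means of 0.494 and 0.512. Differences among these 6 regions were not tested here. Ush1g ran the other way: the 6 regions averaged 0.350, below both sides, and TH, HYP and SN were called above them (limma adjusted p = 1.98e-05).

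**Figure D5:**
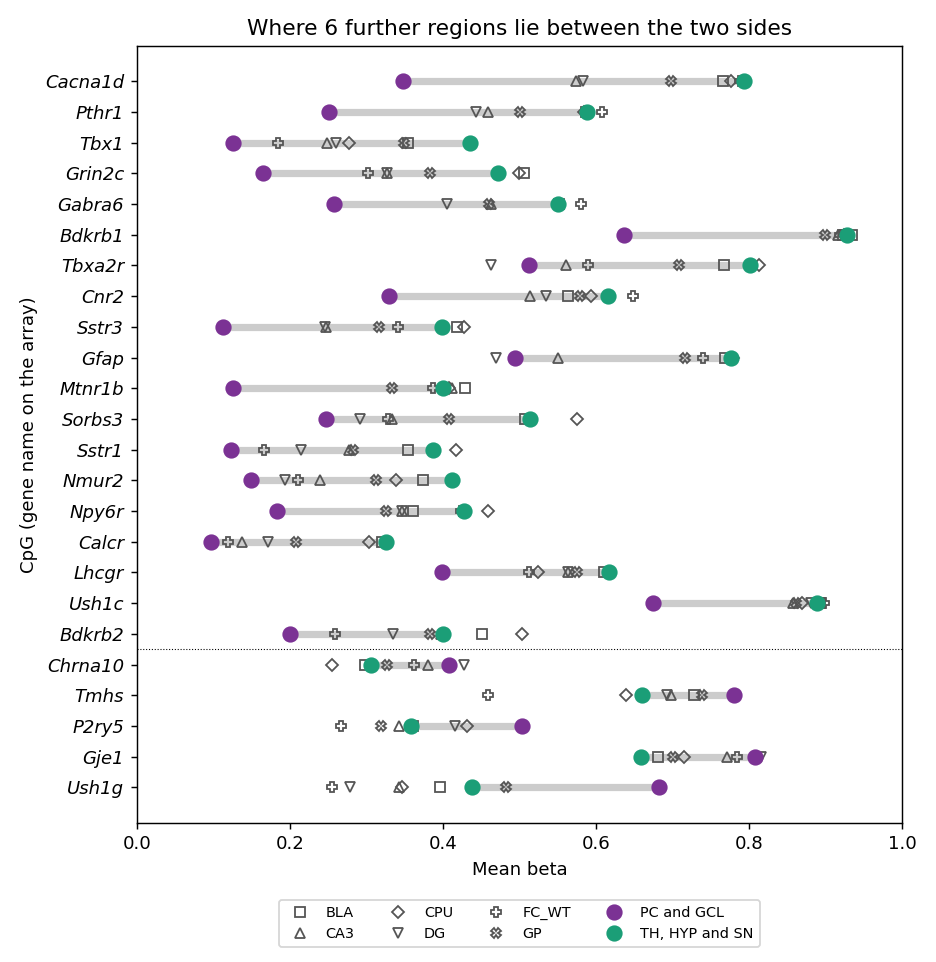
Mean beta (horizontal axis) at the 19 CpGs lower by at least 0.2 (above the dotted line) and the 5 higher by at least 0.1 (below it), for the cerebellar layers (purple), TH, HYP and SN (green) and each of 6 other regions (open symbols). At Bdkrb1 and Mtnr1b the 6 regions cluster near the green point, while at Gfap and Tbxa2r the dentate gyrus lies below the purple point.

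The letter of the replicate code divided the samples at X-linked CpGs. Over the 5 regions, 14 CpGs (3.66%) differed between F and M codes, and all 14 were among the 17 X-linked CpGs (82.4%). The labels do not say what the letters stand for. PC held 3 F codes and 1 M code, so the letter was not balanced between the sides. Of the 3 X-linked CpGs called in the main comparison, Cysltr1, a leukotriene receptor gene, averaged 0.119 against 0.208, and its difference was −0.0764 within F codes and −0.0806 within M codes. P2ry4 (0.742 against 0.806) had −0.0658 and −0.0909. Glra2 (0.317 against 0.425) had −0.106 and −0.0471. The 33 lower CpGs of at least 0.1 were lower within both letters, by a median of −0.223 in F codes and −0.222 in M codes. No CpG showed an interaction of code letter and side by limma's adjusted p, and 45 (11.8%) had an unadjusted p under 0.05.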

How the data were processed

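DNA methylation was measured in bisulphite-converted DNA on a custom Illumina GoldenGate array, per the series' design text; 58 arrays were used here and 26 are compared. The authors deposited beta values, fractions of methylated signal from 0 to 1, in a value table per array; genomic DNA was extracted with phenol, per the labels' protocols. No normalization, background correction, detection filter, bead count or genome build is stated in what was used here, so the precision within an array is unknown and the number of arrays limits it.

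Beta was limited to 0.01 to 0.99 and transformed to log2(beta/(1 − beta)). A model with 1 mean per region was fitted with limma 3.58.1 (lmFit, eBayes) in R 4.3.3 to 53 samples of 11 wild-type regions, with repeat arrays of a caudate-putamen sample averaged and the 4 arrays labelled 3TG left out. Contrasts of unweighted region means were tested, two-sided, with Benjamini-Hochberg adjustment over 382 CpGs. On simulated data with known changes, this comparison recovered 84.75%, 95.75% and 99.75% of changes of 0.5, 1 and 2 on the log2 scale among 382 CpGs, and 5.39% of calls were false. For PC against GCL, recovery of changes of 0.5 was 47%, and for the interaction of code letter and side 20%. Noise was drawn independently at each CpG, so no shift shared by the CpGs of an array, as in PC F2 and PC M3, was simulated. The 5.39% may therefore not hold for these arrays. Array gene names were matched to RefSeq, 362 by symbol and 20 by synonym. Figures were drawn in Python 3.11.15.

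The samples and gene lists were chosen with earlier results of these data known. Named were the 15 widest lower and 10 widest higher calls, up to 4 CpGs of each list and each further test, and all marker CpGs; other CpGs were named after their values were seen, and some CpGs are not reported here. Alternatives changed the scale, normalization, limits, filters, variance model, covariates, samples and regions.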

Additional observations from a re-analysis of the deposited data

Results flagged for a closer look

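Single samples stood apart in 4 of 125 groups of samples examined at the named CpGs, where chance alone would give about 6.25. Pthr1 was highest in SN M3 at 0.629, with the next SN sample at 0.590. Gabrr1 was lowest in the same sample, SN M3, at 0.423, with the next at 0.653. Gfap was lowest in HYP F4 at 0.612, with the next HYP sample at 0.762. Dld was lowest in HYP F4 at 0.574, with the next at 0.682.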

How the results depend on the processing

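Of 61 named CpGs that were called, 42 kept their call and direction in all 44 alternative settings that included them. The main count of 143 was 38 with a difference of at least 0.1, 20 with at least 0.2, 81 with GCL alone and 75 without SN; leaving out 1 sample gave 96 (without PC M3) to 175 (without PC F4). The count called in all 6 pairs ran from 39 to 45 when 1 sample was left out. PC against GCL, 0 as reported, gave 31 on untransformed beta, 53 with beta limited to 0.05 to 0.95 and 0 to 75 with 1 sample left out (75 without PC F4, 49 without PC F1, 7 without HYP M1, 5 without GCL M3 or HYP F2, 1 without GCL F2). TH, HYP and SN among themselves, 2 as reported, gave 4 with quantile normalization, 0 with centring, 8 in a fit of the 26 samples and 0 to 3 with 1 sample left out (0 without HYP M1). The interaction gave 1 call with quantile normalization and 0 whenever 1 sample was left out. Calls off the midpoint ran from 54 to 73 with 1 sample left out. Quantile normalization turned the sign of Grin2a (to 0.10), Adrb3 (0.21), Mag (0.33), Tomt (0.36), Gap43 (0.53) and Adora1 (−0.000273) on the log2 scale; the cause was not tested. The median log2 difference of all CpGs, 0.12 as reported, was 0.07 with quantile normalization, 0.15 with centring and −0.02 without PC F2 and PC M3.

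The codes were not taken to pair the samples, because the labels do not say so and not every same-code pair was correlated: over all CpGs 45 same-code pairs had correlations of deviations from −0.549 to 0.802 (median 0.242, 32 over 0.1; median −0.0896 for other codes), and over autosomal CpGs the median was −0.0674, with 13 over 0.1. With the code as a replicate block, leaving out FC_WT and DG F7 to F9, the main count was 152, the count within TH, HYP and SN 10 and the count off the midpoint 29; with the replicate block among the 26 samples the main count was 98.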

Other observations

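At X-linked CpGs, 13 of the 14 calls by code letter were lower in F codes, and P2ry10 was higher. The labels do not say what the letters stand for; if F stood for female, lower values would go against the added methylation usual on the inactive X chromosome, so no sex is read from the codes. Gabrq, the gene of the GABA-A theta subunit, had the largest absolute log2 difference of the 17 X-linked CpGs: beta ran from 0.153 to 0.247 in the 14 F-coded samples and from 0.690 to 0.773 in the 12 M-coded ones. L1cam, a neural adhesion gene, ran from 0.101 to 0.205 and from 0.457 to 0.563. Neither was called between the sides (limma adjusted p = 0.560 and 0.348).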
